A study of Mus musculus with 6 samples.

Results

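The genes described here code for 10 hormone receptors through which neighbouring endocrine cells, or the cell's own products, can act on an L cell. They are the 5 somatostatin receptor genes (Sstr1, Sstr2, Sstr3, Sstr4 and Sstr5) and 5 class B receptor genes, namely Glp1r, Glp2r and Gcgr, whose ligands are cut from proglucagon, Gipr for GIP and Sctr for secretin. They were chosen by symbol, each matched to 1 Ensembl identifier, and make up 10 of the 54281 genes in the count table. The measurements came from GLUTag cells, an established murine enteroendocrine cell line that makes proglucagon and is used as a model of the intestinal L cell. All 6 wells were of a single condition and had been grown for 48 h on Matrigel-coated plastic with 1 g/L glucose and 10% FBS. Plate 1 held 3 wells at passage 23 and plate 2 held 3 wells at passage 27, so that plate and passage cannot be told apart. The 6 libraries therefore came from 2 cultures of 1 cell line, and p-values measure only the spread between these wells.

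Somatostatin receptors are G protein-coupled receptors that act mainly through the inhibitory G proteins Gi and Go, which lower cyclic AMP and open GIRK potassium channels, and somatostatin released by D cells restrains hormone secretion from the gut. The class B receptors act mainly through the stimulatory G protein Gs, which raises cyclic AMP, a signal that promotes GLP-1 secretion. Somatostatin and the related peptide cortistatin bind all of the somatostatin receptors, whereas the class B receptors each have a preferred peptide of the glucagon and secretin family.

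The libraries were made from polyadenylated RNA with a kit that reads the 3′ end of each transcript, so that long and short transcripts count alike. This removes the effect of length only, and levels are set side by side between genes without a correction for base composition. Levels are given as CPM, the count of a gene over all counts of its library, times 1e6. Totals lay between 21399987 and 36488198 counts. A gene is called detected where it had more than 3 counts in every library. Where no count was seen, up to 3 counts remain possible, or between 0.0822 and 0.140 CPM by library. These limits, and all intervals below, cover counting error only. The columns of plate 2 could not be matched to single wells, so they are told apart by their totals, as lowest, middle and highest. The plate 2 library with the middle total stood apart: 354 of the 5031 genes whose mean reached 30 CPM fell there by over 2-fold below the mean of the remaining libraries, against at most 3 genes in any of those. In the plate 2 highest library 49 genes were over 2-fold higher, against 0 to 4 in each of the others. The plate 2 middle library is part of the mean used there, so this count does not stand independently of it. Of the 13 enteroendocrine and L-cell markers, 12 were detected, led by Gcg, Cck and Neurod1, and Pyy had 2 to 17 counts. Markers of other cells were low, with Ins1, Ins2 and Fabp2 at 0 in all libraries, Sst at no more than 1 count, and Ptprc and Pdgfra at no more than 4. Detected were 1 of 2 D-cell markers (Hhex), 1 of 3 beta-cell markers (Mafa), 3 of 8 markers of other gut epithelium, 1 of 3 fibroblast markers (Col1a2) and 1 of 3 blood markers (Cd68). Of those lists only Mafa, with 148 ± 24.0 CPM (SD, n = 6), was above 10 CPM. Of all protein coding genes, 58.4% were detected. In such bulk libraries fewer cells that carry a transcript and less of it per cell cannot be told apart.

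The somatostatin receptor genes resemble one another in their coding sequence, which matters for how reads are assigned to them. Identity over the aligned coding bases lay between 65.7% (Sstr3 and Sstr4) and 73.9% (Sstr1 and Sstr4), with 72.5% for Sstr3 and Sstr5. The stretch of 30 bases that codes for the signature of the family in the seventh membrane segment is shown for each gene, since it is the part by which they are recognised as one family. It lies at chr17:25491348-25491377 on the minus strand for Sstr5, chr12:58213529-58213558 on the plus strand for Sstr1, chr11:113625160-113625189 on the plus strand for Sstr2, chr15:78539583-78539612 on the minus strand for Sstr3 and chr2:148396362-148396391 on the plus strand for Sstr4, all in GRCm38 and all within coding exons. The sequences are given 5′ to 3′ on the coding strand, and capitals mark bases that differ from Sstr5.
Sstr5: tatgccaatagctgtgccaaccccctgctc
Sstr1: tatgccaaCagctgtgccaaccccAtCctc
Sstr2: tatgccaaCagctgCgccaaccccAtCctG
Sstr3: taCgccaaCagctgCgcAaaccccAtCctc
Sstr4: tatgccaaCagctgtgccaaTcccAtTctc
The stretch differed from that of Sstr5 at 3 bases in Sstr1, 4 in Sstr4, 5 in Sstr2 and 6 in Sstr3. At the 3′ end, where the reads start, the genes were distinct. Of all runs of 31 bases in their annotated transcripts, Sstr3 and Sstr5 shared 11 with each other and none in the last 400 bases, and Sstr1, Sstr2 and Sstr4 shared none with any gene.

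Of the 10 receptor genes, 5 were detected, and 1 gene held most of the counts. Sstr5 was the highest in all 6 libraries, Gipr came next, and Sstr2, Sstr3 and Sstr1 were detected at means of 1.42 CPM or less. Sstr4 had no count in any library, and Glp1r, Glp2r, Gcgr and Sctr had between 0 and 5 counts per library. The share of all 21805 protein coding genes that were detected by the same rule was 58.4%, and 5 of 10 is near that background. At least 1 CPM in every library was reached by 51.8% of protein coding genes, and among the receptors by Sstr5 and Gipr, which makes 2 of 10. The median level over protein coding genes was 2.61 CPM, and over the 10 receptors it was 0.177 CPM.

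**Figure D1:**
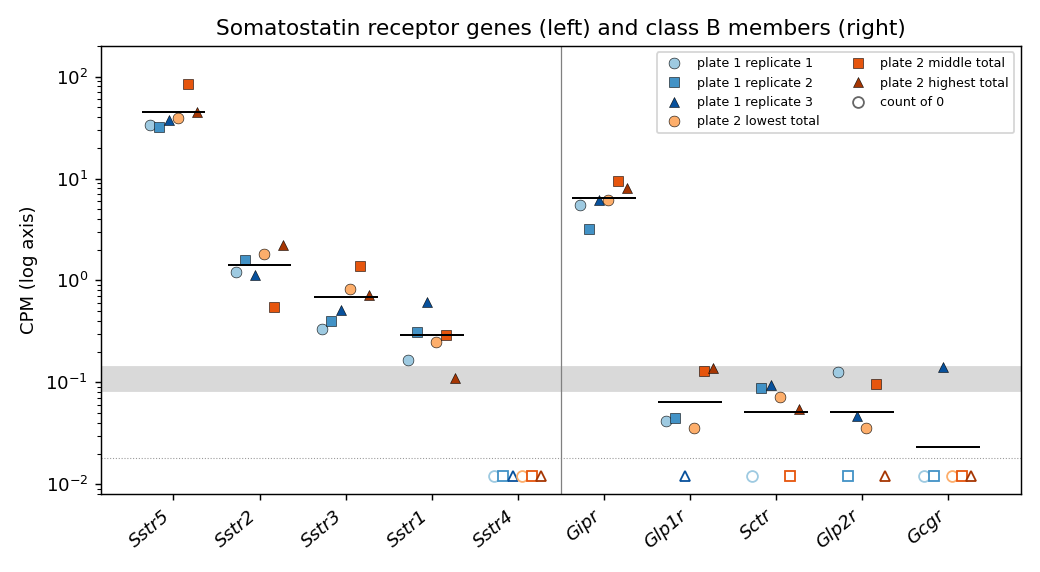
CPM of each receptor gene in each of the 6 libraries, on a log axis; blue symbols are plate 1, orange symbols plate 2, the bar is the mean of the 6 libraries, open symbols below the dotted line are counts of 0, and the grey band is the level that a count of 0 allows (0.0822 to 0.140 CPM). Sstr5 and Gipr lie above 3 CPM in every library, and the 4 class B members on the right lie within or below the band.

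Sstr5 (ENSMUSG00000050824, chr17:25489875-25497288, minus strand, GRCm38) codes for a receptor found on many endocrine cells. On plate 1 it had 33.4, 32.3 and 37.6 CPM in replicates 1, 2 and 3, and on plate 2 it had 39.5, 84.6 and 45.2 CPM in the libraries with the lowest, middle and highest total. The plate 2 middle library was higher than all others, which lay close together between 32.3 and 45.2 CPM. The mean was 45.4 ± 19.7 CPM (SD, n = 6), from 731 to 2615 counts, and 37.6 ± 5.17 CPM (SD, n = 5) without the plate 2 middle library. The mean was at the 83.6th percentile of protein coding genes. The SD between libraries was 15.3 times the 1.29 CPM that counting alone would give, and 4.31 times the counting value without the plate 2 middle library.

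The other detected somatostatin receptor genes were far below Sstr5. Sstr2 (ENSMUSG00000047904, chr11:113619342-113626028, plus strand), the subtype that most somatostatin analogues in clinical use bind best, had 1.21, 1.59 and 1.12 CPM on plate 1 and 1.82, 0.550 and 2.25 CPM on plate 2. The mean was 1.42 ± 0.594 CPM (SD, n = 6), from 17 to 82 counts, and the lowest value was in the plate 2 middle library, where Sstr5 was highest. The annotation places Slc39a11 on the opposite strand at Sstr2, and the strand setting of the counting is not given in the sources used here.

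Sstr3 (ENSMUSG00000044933, chr15:78537008-78544685, minus strand), which in neurons is known from the primary cilium, had 0.333, 0.398 and 0.514 CPM on plate 1 and 0.819, 1.39 and 0.713 CPM on plate 2. All 3 libraries of plate 2 were above all 3 of plate 1, as they were on this scale for 35.2% of the genes tested between plates. The mean was 0.695 ± 0.388 CPM (SD, n = 6), from 8 to 43 counts, and 0.555 ± 0.206 CPM (SD, n = 5) without the plate 2 middle library. Sstr1 (ENSMUSG00000035431, chr12:58211772-58214444, plus strand) had 0.167, 0.309 and 0.607 CPM on plate 1 and 0.249, 0.291 and 0.110 CPM on plate 2. With 4 to 13 counts and a mean of 0.289 ± 0.174 CPM (SD, n = 6), it was near the limit of the depth, and its SD was 1.60 times that of counting alone. Sstr4 (ENSMUSG00000037014, chr2:148395344-148396767, plus strand) had 0 of 163512770 counts in the 6 libraries together, which allows up to 0.0183 CPM.

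Sstr5 alone accounted for nearly all somatostatin receptor counts. Its share was 95.1% on plate 1 in replicate 1 (95% Wilson interval 93.5% to 96.4%), 93.4% in replicate 2 (91.4% to 94.9%) and 94.4% in replicate 3 (92.6% to 95.7%). On plate 2 the share was 93.2% in the lowest library (91.6% to 94.5%), 97.4% in the middle (96.8% to 98.0%) and 93.6% in the highest (92.4% to 94.7%). The interval of the plate 2 middle library lay above those of the other 5, which overlapped one another. The summed level of the 5 genes was 47.8 ± 19.8 CPM (SD, n = 6).

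Among the class B genes, Gipr was the only one detected. Gipr (ENSMUSG00000030406, chr7:19156061-19166127, minus strand) codes for the receptor of GIP, the incretin of the K cell. It had 5.50, 3.23 and 6.21 CPM on plate 1 and 6.16, 9.54 and 8.03 CPM on plate 2. The plates overlapped, and the lowest value was in plate 1 replicate 2. The mean was 6.45 ± 2.17 CPM (SD, n = 6), from 73 to 295 counts, at the 56.9th percentile of protein coding genes, and the SD was 4.47 times that of counting alone.

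The receptors for the products of proglucagon and for secretin were at or near 0. Glp1r (ENSMUSG00000024027, chr17:30901817-30940791, plus strand), the receptor of GLP-1, had 0 to 5 counts per library and 12 in all. Glp2r (ENSMUSG00000049928, chr11:67661502-67771153, minus strand), the receptor of GLP-2, had 0 to 3 counts and 8 in all. Gcgr (ENSMUSG00000025127, chr11:120530699-120538986, plus strand), the glucagon receptor, had 3 counts, all of them in plate 1 replicate 3. Sctr (ENSMUSG00000026387, chr1:120006894-120063536, plus strand), the secretin receptor, had 0 to 2 counts and 8 in all. Over the pooled libraries the exact 95% Poisson interval was 0.0379 to 0.128 CPM for Glp1r, 0.0211 to 0.0964 CPM for both Glp2r and Sctr, and 0.0038 to 0.0536 CPM for Gcgr. No order among these 4 genes could be seen at this depth, and they were not detectable in every library, which is not the same as absent. Gipr made up between 95.7% and 97.7% of the counts of the 5 class B genes in the 6 libraries. Glp1r shares 25 runs of 31 bases with 1412 other genes, none of them in its last 400 bases, and non-coding or other genes lie on the opposite strand at Glp1r, Glp2r and Gcgr.

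The order of the detected receptors was examined within libraries, as the difference of log2(CPM + 1) between each gene and the next. This order was taken from the means of the same libraries. The p-values therefore do not test an order set in advance. The test was exact and two-sided, by permutation of the signs over 6 libraries, and cannot give a p below 0.03125. With Benjamini-Hochberg adjustment over 4 comparisons, an adjusted p under 0.05 would need 3 of them at that smallest value. Sstr5 was above Gipr in 6 of 6 libraries, with a mean log2 difference of 2.61 ± 0.30 (SD, exact permutation p = 0.03125, adjusted p = 0.0625). Gipr was above Sstr2 in 6 of 6 libraries, with 1.60 ± 0.67 (SD, exact permutation p = 0.03125, adjusted p = 0.0625). These 2 steps kept their direction in every library but did not pass the adjustment. Sstr2 was above Sstr3 in 5 of 6 libraries, with 0.51 ± 0.58 (SD, exact permutation p = 0.09375, adjusted p = 0.09375), and below it in the plate 2 middle library. Sstr3 was above Sstr1 in 5 of 6 libraries, with 0.38 ± 0.37 (SD, exact permutation p = 0.0625, adjusted p = 0.0833). In the last 2 pairs the mean difference was about as large as its SD, and with 1 of 6 libraries the other way this exact permutation test cannot go below p = 0.0625, so it does not show that the levels are alike. On the CPM scale, Sstr5 exceeded Gipr by 5.63 to 10.0 times per library.

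Levels of the hormone genes were set beside those of their receptors. The cells had abundant transcripts of proglucagon and secretin and almost none of their receptors, and had transcripts of Sstr5 and Gipr but almost none of somatostatin and none of GIP. Gcg, the gene of proglucagon, had 3416 ± 771 CPM (SD, n = 6), whereas Glp1r, Glp2r and Gcgr each had at most 0.140 CPM in any library. Sct, the gene of secretin, had 412 ± 61.1 CPM (SD, n = 6) and Sctr at most 0.0935 CPM. Both hormone genes ranked high among protein coding genes, at the 99.9th percentile for Gcg and the 98.4th for Sct.

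The hormones of the receptors that were detected gave the opposite picture. Gip had a count of 0 in all 6 libraries, which over the pooled counts allows up to 0.0183 CPM, beside 6.45 CPM of Gipr. Sst had 1 count in 1 of the 6 libraries, beside 45.4 CPM of Sstr5. Cort, the gene of cortistatin, was detected in all libraries with 6 to 44 counts and 0.686 ± 0.533 CPM (SD, n = 6). Relative to its mean, Cort differed more between libraries than any detected receptor, with 0.333, 0.265 and 1.26 CPM on plate 1 and 0.641, 1.42 and 0.192 CPM on plate 2. Of the enzymes that make or degrade these peptides, Pcsk1, the convertase that cuts GLP-1 from proglucagon, had 82.9 ± 27.2 CPM (SD, n = 6). Pcsk2, the convertase that cuts glucagon from proglucagon, had 52.9 ± 6.66 CPM (SD, n = 6), and Dpp4, the peptidase that inactivates GLP-1 and GIP, had 4.57 ± 1.63 CPM (SD, n = 6). Mme, which codes for neprilysin, was not detected, with 0 to 7 counts.

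**Figure D2:**
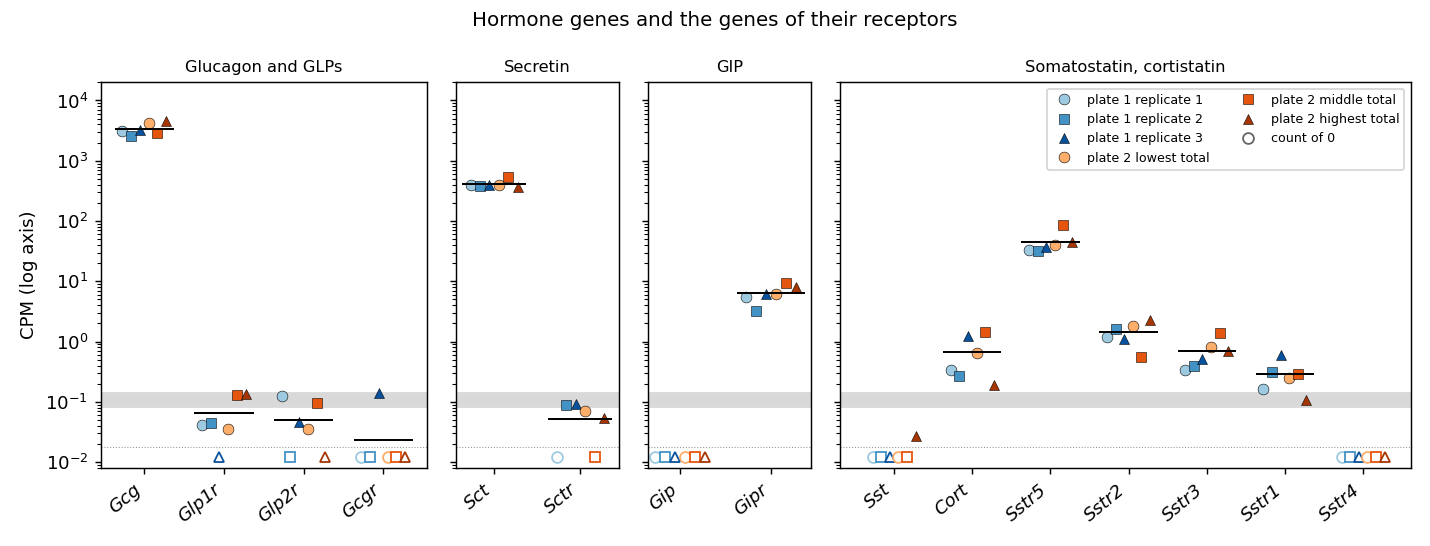
CPM of hormone genes and of the genes of their receptors in each of the 6 libraries, on a log axis shared by the 4 panels; symbols, bars, dotted line and grey band as in the plot of the 10 receptors. Gcg and Sct lie above 300 CPM with their receptors within or below the grey band, and Gip and Sst lie at or near 0 with Gipr and Sstr5 above 3 CPM.

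Of 41 genes for G proteins, desensitisation and effectors through which these receptors can act, 35 were detected, 28 had a mean above that of Gipr and 15 a mean above that of Sstr5. Of all protein coding genes, 58.4% were detected, the background for each list here and for the effectors and class B1 receptors below. Gipr and Sstr5 stood at the 56.9th and 83.6th percentile of protein coding genes. All 9 G protein alpha subunit genes were detected. Gnas, which codes for Gs, had 1390 ± 235 CPM (SD, n = 6), Gnai2, which codes for a Gi subunit, had 632 ± 69.6 CPM, and Gna11, which codes for a subunit of the Gq family, had 175 ± 42.6 CPM. Gnao1, which codes for Go, had 89.4 ± 4.12 CPM and the lowest of the 9 was Gnal, with 0.249 CPM and 3.01 counts in its lowest library. Of the 10 genes for desensitisation and receptor partners, 9 were detected, led by Arrb2, a beta-arrestin, with 89.6 ± 19.1 CPM, and by the receptor kinases Grk2 with 48.7 ± 7.91 CPM and Grk6 with 32.0 ± 6.59 CPM. Ramp1, a partner of calcitonin family receptors, had 0 to 2 counts and was the one not detected.

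Of 22 effector genes of the cyclic AMP and GIRK pathways, 17 were detected. The highest were 3 subunits of protein kinase A, Prkar1a with 445 ± 87.3 CPM (SD, n = 6), Prkar2a with 212 ± 18.5 CPM and Prkacb with 84.2 ± 14.2 CPM. Those not detected were the adenylyl cyclase genes Adcy4, Adcy7 and Adcy8 and the GIRK channel genes Kcnj3 and Kcnj5. The other 2 GIRK genes, Kcnj9 with 6.83 ± 1.88 CPM and Kcnj6 with 1.23 ± 0.321 CPM, were detected in every library. Of 10 further class B1 receptor genes, 4 were detected, namely the VIP receptors Vipr1 with 2.94 ± 0.777 CPM and Vipr2 with 1.67 ± 0.420 CPM, and the CRF receptors Crhr2 with 1.25 ± 0.342 CPM and Crhr1 with 0.397 ± 0.250 CPM. All 4 were below Gipr in their means. Calcr, Adcyap1r1 and Pth1r did not pass the rule, and Ghrhr, Pth2r and Calcrl had a count of 0 in all 6 libraries.

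**Figure D3:**
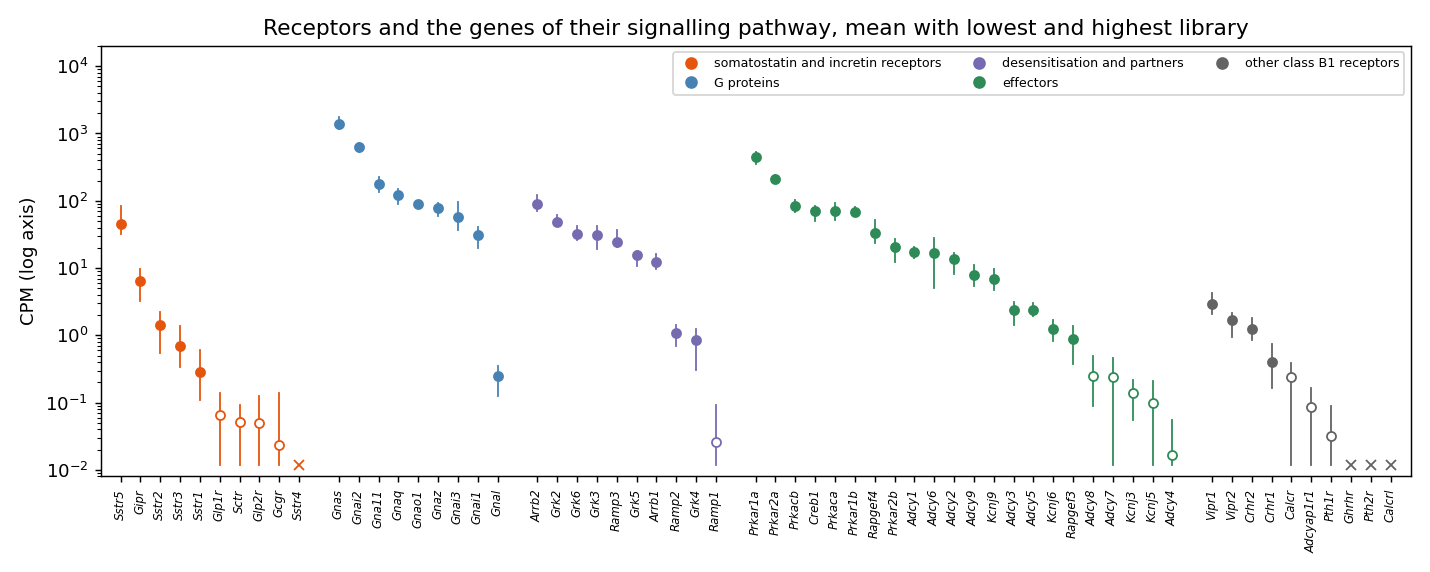
Mean CPM on a log axis (circles) with the lowest and highest of the 6 libraries (lines) for the 10 receptors and for 4 lists of pathway genes; filled circles had more than 3 counts in every library, open circles did not, crosses had no count, and lines that reach the bottom end at a count of 0. All but 1 of the G protein genes lie above 10 CPM, and among the receptors Sstr5 does.

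The only grouping in the labels is the plate. No receptor gene differed between plates past the threshold. The plates were compared with the quasi-likelihood test of edgeR over 15669 genes, of which 29 passed an adjusted p of 0.05, or 0.185%, with 2 higher and 27 lower on plate 2. That split depended on the scaling and on 1 library: it was 1390 higher and 71 lower with the total count as the only scaling, and 667 higher and 1244 lower without the plate 2 middle library, while DESeq2 gave 157 higher and 427 lower. No gene was called without plate 1 replicate 1 or without the plate 2 lowest library, where 1611 and 2121 genes were below an unadjusted p of 0.05. Of the 10 receptors, 4 had enough counts to be tested (Sstr5, Gipr, Sstr3 and Sstr2), and 0 were called. None of the 4 was below an unadjusted p of 0.05, and 0 were called by DESeq2 or limma-voom.

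Sstr5, with 34.4 ± 2.78 CPM on plate 1 and 56.4 ± 24.6 CPM on plate 2 (SD, n = 3), had a log2 fold change of 0.45 ± 0.29 (SE, edgeR adjusted p = 0.497). That difference was carried by 1 library, since without the plate 2 middle library the log2 fold change was -0.0062 ± 0.11 (SE, edgeR adjusted p = 0.981). Gipr, with 4.98 ± 1.56 CPM on plate 1 and 7.91 ± 1.69 CPM on plate 2 (SD, n = 3), had a log2 fold change of 0.41 ± 0.27 (SE, edgeR adjusted p = 0.505), and of 0.21 ± 0.25 without the plate 2 middle library. Sstr3, with 0.415 ± 0.0915 and 0.974 ± 0.365 CPM (SD, n = 3), had 0.96 ± 0.48 (SE, edgeR adjusted p = 0.364), and 0.57 ± 0.61 without that library. Sstr2, with 1.31 ± 0.250 and 1.54 ± 0.882 CPM (SD, n = 3), had -0.04 ± 0.48 (SE, edgeR adjusted p = 0.982), and 0.33 ± 0.37 without it. For all 4 genes the standard errors were too wide to tell a small change from none.

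**Figure D4:**
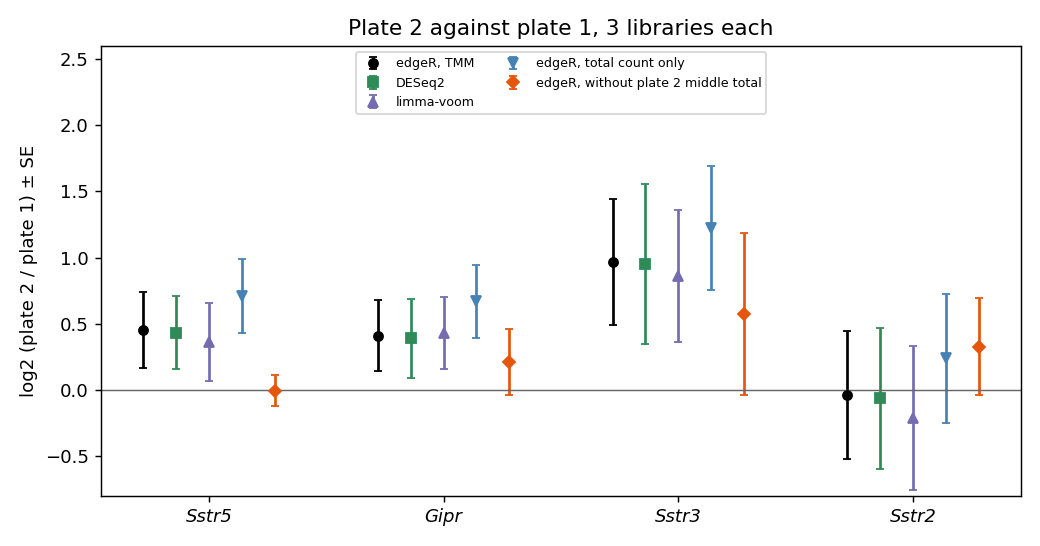
Log2 fold change of plate 2 over plate 1 with its standard error for the 4 receptor genes tested, in edgeR with TMM scaling (black circles), DESeq2, limma-voom, edgeR with the total count as the only scaling, and edgeR without the plate 2 middle library. For Sstr5 the value is 0.45 in the edgeR fit with TMM scaling and lies at 0 without the plate 2 middle library, and for Sstr2 the sign differs between fits.

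On the CPM scale, plate 2 lay above plate 1 without overlap for Sstr5 and Sstr3. This is the case for 35.2% of the 15669 genes tested, so nothing particular to the receptors can be read from it. The median log2 change over all tested genes was 0.30 when only the total count was used for scaling and 0.03 with TMM. With TMM scaling, where 12.8% of the genes tested lay higher on plate 2 without overlap, Sstr3 did not overlap and Sstr5 did, at 36.4 to 40.3 against 35.4 to 78.4 CPM of the scaled library size. The median log2 change of the 4 receptors tested was 0.43 with TMM, 0.69 with the total count as the only scaling and 0.27 without the plate 2 middle library. It was -0.02 over the 9 receptors tested without a filter on low counts, against 0.10 over all genes in that fit. The upward median therefore depended on which receptors were tested. In the edgeR fit with TMM scaling, the filter on low counts and all 6 libraries, no gene of the pathway lists passed the threshold either. Tested were 6 of 9 ligand and enzyme genes, 8 of 9 G protein genes, 9 of 10 desensitisation genes, 17 of 22 effectors and 3 of 10 further class B1 receptors. The smallest adjusted p among them was that of Gna11, with a log2 fold change of -0.85 ± 0.14 (SE, edgeR adjusted p = 0.0563). Its call depended on the method, since it was lower on plate 2 with DESeq2 (-0.87 ± 0.17, SE, adjusted p = 6.5e-05) and without a filter on low counts (-0.83 ± 0.14, SE, edgeR adjusted p = 4.3e-05), and not called by limma-voom (adjusted p = 0.0687). Pcsk1 was called higher on plate 2 without that filter, with a log2 fold change of 0.57 ± 0.15 (SE, edgeR adjusted p = 0.0169), against 0.135 with it. With the total count as the only scaling, Pcsk1 and Prkar1a were called higher and Gna11 lower, and with DESeq2 size factors in edgeR Gna11 alone was called. Over all genes, the share called was 3.73% with DESeq2, 2.02% without the filter, 9.32% with the total count only and 0.217% with DESeq2 size factors in edgeR. Without the plate 2 middle library 7 of 45 pathway genes were called, or 15.6%, near the 12.0% of all genes in that fit, namely Pcsk1, Gnai3 and Rapgef4 higher and Sct, Pcsk2, Gna11 and Ramp3 lower on plate 2.

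The receptors did not all move the same way in the library that stood apart. In the plate 2 middle library, Sstr5 was 2.00 times and Sstr3 1.82 times the mean of its 2 plate neighbours, Sstr1 was 1.62 times, Gipr 1.34 times and Sstr2 0.271 times. The hormone genes also went both ways there, with Sct at 1.39 times, Gcg at 0.669 times and Cort at 3.42 times. Among the 5 detected receptors on plate 1, the largest departures were those of Sstr1 in replicate 1, at 0.364 times, and in replicate 3, at 2.55 times, on 4 and 13 counts.

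**Figure D5:**
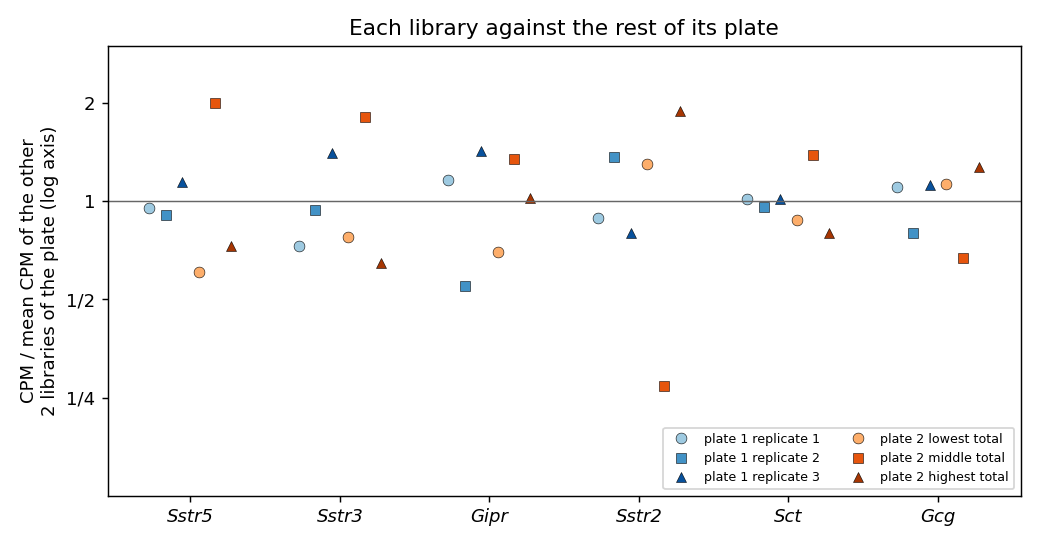
CPM of 4 receptor and 2 hormone genes in each library divided by the mean CPM of the other 2 libraries of the same plate, on a log axis; blue symbols are plate 1 and orange symbols plate 2. In the plate 2 middle library (orange squares) Sstr5 is at 2.00 and Sstr2 at 0.271.

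That library also differed in base composition. Its log2 level relative to the other libraries of its plate was higher where the final 200 bases of the transcript held more GC. Spearman's rho was 0.54 across 5030 genes, which are not independent replicates. The same measure lay between -0.15 and 0.26 on plate 1. It was -0.37 in the plate 2 lowest and -0.49 in the plate 2 highest library, whose reference includes the middle library. The last 200 bases held 55.5% GC in Sstr5 (94.9th percentile of detected genes), 53.0% in Sstr3, 50.5% in Sstr1, 49.5% in Gipr and 39.0% in Sstr2 (41.2nd percentile), which is also the order of their ratios in that library. The part of GC content in these differences was not tested.

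Over the 6 libraries, Pearson's r of log2(CPM + 1) with Sstr5 was 0.94 for Sstr3, 0.80 for Gipr, -0.06 for Sstr1 and -0.61 for Sstr2. Among the hormone genes it was 0.91 for Sct, 0.61 for Cort and 0.01 for Gcg. These values are descriptions, and several were set by the plate 2 middle library. Without it, over 5 libraries, r was 0.68 for Sstr2 and -0.22 for Sct, both with the other sign, 0.92 for Gcg and 0.01 for Cort, and it was 0.84 for Sstr3, 0.87 for Gipr and -0.26 for Sstr1. Among the 12360 genes that reached 1 CPM in each library, those most like Sstr5 by this measure were Slc4a2 with r of 0.996, Rabac1 with 0.995 and Gm2694 with 0.994. As many as 229 genes had an r above 0.95 with it. The last 200 bases held 55.5% GC in Slc4a2, an anion exchanger, 57.5% in Rabac1 and 47% in Gm2694. Slc4a2 was likewise highest in the plate 2 middle library, from 12.3 to 24.9 CPM over the 6. Without that library, r was 0.983 for Slc4a2, 0.952 for Rabac1 and 0.963 for Gm2694.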

How the data were processed

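RNA from 6 wells of GLUTag cells was sequenced from the 3′ end of each transcript. According to the study's methods, the authors trimmed reads with Trim Galore 0.6.4 and assigned them with Salmon 1.5.1 to GENCODE M23 transcripts of GRCm38, without length correction, with sums per gene from Tximeta. The deposited values are expected counts, not normalized, whose totals lay between 21399987 and 36488198.

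Here, CPM was the count over the library's total. Counts were rounded for the plate comparison with edgeR 4.0.16 (robust quasi-likelihood test after filterByExpr, TMM scaling, Benjamini-Hochberg adjusted p under 0.05), with DESeq2 1.42.0 and limma-voom from limma 3.58.1 as alternatives. Symbols, positions and sequences are from GENCODE M21 on GRCm38, in which 54107 of the 54281 identifiers were found. Neighbouring levels were compared by an exact sign-flip permutation test on log2(CPM + 1) with a pseudocount of 1. The fits were tested on simulated data, in which the changes were larger than those of the receptors and no library stood apart. That check does not cover small changes or an odd library. Python 3.11.15, scipy 1.17.1 and R 4.3.3 were used.

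The 10 receptors were all named. Of each pathway list, the highest 3 genes and those not detected were named, with all ligands. Crhr1, Gnal, Gnao1, Kcnj6 and Kcnj9 were added after their values were seen, as were the pathway genes named in the plate comparison. The members and lists were chosen with earlier results of these data known. The secretion, siRNA and western blot experiments and the datasets of other studies were not analysed here.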

Additional observations from a re-analysis of the deposited data

Results flagged for a closer look

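Of 8 genes examined for a library far from the rest (the 5 detected receptors, Gcg, Sct and Cort, with all 6 libraries taken as one condition), 2 had one. Chance alone gives such a mark in about 1 in 20 groups. Sstr5 had 84.6 CPM in the plate 2 middle library, against 32.3 to 45.2 CPM in the other 5 libraries, a gap of 0.753 of the whole range, above Dixon's critical value for 6 values. Sct had 535 CPM in the same library, against 374 to 398 CPM in the others, a gap of 0.851 of the range. This is also the library in which 354 of 5031 well expressed genes were more than 2-fold low. There, levels rose with the GC content of the transcript end. Both were measured against the other libraries of plate 2. The part of base composition in either value was not tested.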

How the results depend on the processing

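Under TMM, DESeq2 size factors or totals without mitochondrial genes, the mean levels of the 9 receptors with any count were 0.955 to 1.08 times those reported. From 1 plate alone, levels moved by over 1.5 times for Sstr3 (0.415 CPM on plate 1), Glp1r (0.0286 and 0.101 CPM) and Gcgr (0.0467 and 0 CPM; 0 without plate 1 replicate 3). The number of receptors detected was 3 with more than 10 counts in every library (Sstr5, Gipr and Sstr2) and 2 with at least 1 CPM; it was 5 with more than 3 counts in at least 3 libraries, and 5 with each library left out in turn, a check added after seeing the data. The 4 steps in the order of levels kept their direction under 40 alternatives, but for Sstr5 over Gipr and Gipr over Sstr2 no alternative could have turned it. Both were positive in 6 of 6 libraries, and neither scaling nor pseudocount can turn the sign within a library. Alternatives with 5 libraries could not go below an exact permutation p of 0.0625. The size of the steps depended on the pseudocount (Sstr3 over Sstr1 0.10 with 5 CPM and 1.01 with 0.1 CPM). The number of genes that differed between plates depended on the processing: 584 with DESeq2, 545 without a filter on low counts, 1461 with the total count as the only scaling, and 0 to 1911 when each library was left out, the highest without the plate 2 middle library and 0 without plate 1 replicate 1 or the plate 2 lowest library. Of 49 member values between plates, none became significant (adjusted p 0.114 to 0.986). Sstr2 changed sign with the total count as the only scaling (0.24) and ranged from -0.43 to 0.33 when libraries were left out, and Sstr5 ranged from -0.0062 to 0.66. The cause was not tested. Sstr3 had no adjusted p in DESeq2. No paired analysis was possible because no replicate number is shared by the plates in the labels, and the numbers in the plate 2 columns match none of the labels' numbers for that plate. With 3 libraries per plate and 4 to 82 counts for Sstr1, Sstr2 and Sstr3, the precision for these genes was low.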
